A study of Mus musculus with 8 samples.

Results

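The late granule program of the neutrophil was followed through 9 genes: Ltf, Camp, Ngp, Lcn2, Cd177, Mmp8 and Mmp9, whose products are stored in specific (secondary) or gelatinase granules, and S100a8 and S100a9, which encode the subunits of calprotectin. They were picked by name, 9 of 21751 protein-coding genes of GENCODE M39, and a gene's start-site loop is a listed loop with an end in the 5 kb bin that holds its canonical start site (GRCm39, the assembly also called mm39). The data are H3K27ac HiChIP, which ligates DNA ends that are near each other in the cell and pulls down those on chromatin with acetylated H3K27, a mark of active regulatory DNA. HPC-7, a mouse hematopoietic progenitor line with very low endogenous CEBPA, had been stably transduced with a retrovirus carrying GFP and 1 isoform of CEBPA, a myeloid transcription factor: p42, the full-length form, or p30, which lacks N-terminal trans-activation domains. Per the study's methods the isoforms of this line were fused to ERT2, so that 4-OHT lets them enter the nucleus. The labels do not state whether the HiChIP cells carried the fused or the unfused form.

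There were 4 groups of 2 libraries: p30 UT and p42 UT (untreated), and p30 LPS and p42 LPS, which had received lipopolysaccharide, a bacterial cell wall component, for 2 h at 100 ng/mL. The 2 libraries of each group were pooled into 1 list of loops, so no spread between replicates can be given, and every difference below compares 4 pooled lists of bulk cells. A stronger contact per cell and more cells that carry it cannot be told apart. Values given 4 at a time follow the order p30 UT, p30 LPS, then p42 UT and last p42 LPS. The lists held 80489 (p30 UT), 94609 (p30 LPS), 158233 (p42 UT) and 78591 loops (p42 LPS) from between 14503330 and 18999991 modelled contacts, and all 75822 listed bins carried the same peak flag in each list that named them. The number of loops at a gene can move with the length of the list, so counts are also given for lists of equal size, keeping from each the 78591 loops of lowest q-value. Progenitor markers fitted the label, as all 8 of Kit, Gata2, Tal1, Lmo2, Myb, Runx1, Lyl1 and Erg had a start-site loop in every list, while Cd3e, Pax5 and Ebf1 of 5 lymphoid markers had none. Of all protein-coding genes, from 35.1% to 44.8% had a start-site loop in a given list.

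Neutrophils load their granules in waves. Primary granule proteins such as myeloperoxidase are made first, in promyelocytes, and secondary granule proteins follow in myelocytes under the control of C/EBP factors, of which C/EBPε is the best known. Lactoferrin (Ltf) and lipocalin 2 (Lcn2) withhold iron from bacteria, the cathelicidin peptide made from Camp kills them, and calprotectin, stored in the cytosol, withholds zinc and manganese from microbes once released. A loop here means only that more contacts were counted between a pair of bins than their distance and coverage predict.

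The stretches before the start sites are shown for Ltf, Camp, Ngp and Lcn2, which had start-site loops, and for S100a9, which had none. They were taken from the RefSeq promoter table (GRCm38.p6), which held 8 of the 9 genes but not Mmp9, and each was matched once to GRCm39. Only bases before both the RefSeq and the GENCODE start are printed, 5′ to 3′ on the gene's strand, and capitals mark the C/EBP core TTGCNNAA on either strand. The positions are chr9:110848110-110848338 (plus strand) for Ltf, chr9:109678686-109678774 (minus) for Camp, chr9:110248626-110248814 (plus) for Ngp, chr2:32277810-32278001 (minus) for Lcn2 and chr3:90603072-90603278 (minus) for S100a9.
Ltf: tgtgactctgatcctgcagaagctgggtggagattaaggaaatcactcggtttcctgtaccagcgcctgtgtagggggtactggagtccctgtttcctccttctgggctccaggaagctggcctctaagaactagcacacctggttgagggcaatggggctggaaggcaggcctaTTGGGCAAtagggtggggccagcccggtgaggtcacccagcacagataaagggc
Camp: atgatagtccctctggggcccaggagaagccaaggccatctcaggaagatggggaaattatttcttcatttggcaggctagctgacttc
Ngp: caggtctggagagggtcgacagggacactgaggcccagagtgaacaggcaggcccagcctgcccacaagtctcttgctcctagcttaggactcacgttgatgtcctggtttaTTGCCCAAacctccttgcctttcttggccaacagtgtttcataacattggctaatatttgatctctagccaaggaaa
Lcn2: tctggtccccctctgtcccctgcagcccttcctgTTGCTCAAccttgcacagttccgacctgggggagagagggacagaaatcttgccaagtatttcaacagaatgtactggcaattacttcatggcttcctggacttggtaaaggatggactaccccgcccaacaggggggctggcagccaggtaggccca
S100a9: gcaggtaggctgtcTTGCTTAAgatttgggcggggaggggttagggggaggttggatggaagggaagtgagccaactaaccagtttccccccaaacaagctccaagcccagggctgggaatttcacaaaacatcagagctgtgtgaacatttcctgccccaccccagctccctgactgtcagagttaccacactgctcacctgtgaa

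Over the whole 250 bases before the RefSeq start, the C/EBP core was found at 5 of the 8 genes: Ltf (75 bases before the start), Ngp (138 and 11 bases), Lcn2 (216), S100a9 (236) and Mmp8 (19). It was found in 9.56% of 32851 promoter entries of the same length. The second Ngp match lies past the GENCODE start and is not printed. Ltf and Ngp carry the same core word on opposite strands. The PU.1-type ETS core GAGGAA was found at Ltf, Lcn2, S100a8, Cd177 and Mmp8 (23.3% of all entries) and the AP-1 site TGANTCA at none of the 8 (6.75%). A match is a run of letters, and binding at these sites was not analysed here.

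Start-site loops were listed for 5 of the 9 genes, Ltf, Camp, Ngp, Lcn2 and Mmp9, and for none of S100a8, S100a9, Cd177 and Mmp8 in any list. Across all protein-coding genes, 48.3% had a start-site loop in at least 1 list. Among the members, 2 had one in p30 UT, 4 in the LPS list of p30, 5 in p42 UT and 4 in the LPS list of p42, where 37.2%, 38.7%, 44.8% and 35.1% of all genes had one. The members' loops numbered 5, 13, 22 and 10 in the same order, and in lists of equal size 5, 8, 12 and 10. They were 31 different loops, of which 18 were in 1 list (58.1%), 9 in 2, 2 in 3 and 2 in all 4 (6.45%). Of all 214313 loops, 50.5% were in 1 list and 14.5% in all 4. Neighboring bins share a contact's signal, so loops to adjacent partner bins are not separate observations. Of the 50 entries, 48 had a peak at the far end. No listed loop lacked a peak bin, and most listed bins were peak bins in every list. They were 44437 of 49923 bins in p30 UT and 46873 of 51773 in p30 LPS. In p42 UT they were 57801 of 65382 and in p42 LPS 43673 of 47927.

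**Figure D1:**
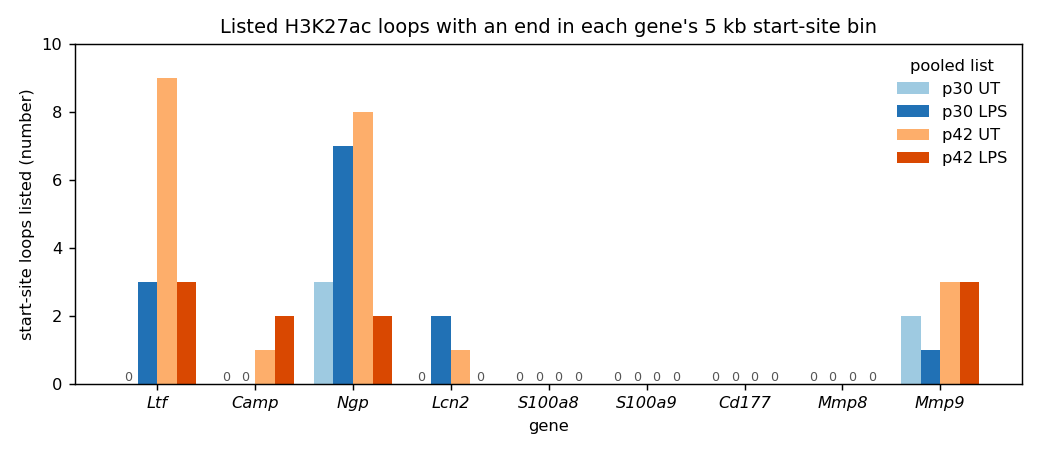
Number of listed H3K27ac loops (y axis) with an end in the 5 kb start-site bin of each of the 9 genes (x axis), with 1 bar per pooled list and 0 written where no loop was listed. Ltf and Ngp had the highest bars, 9 and 8 loops in p42 UT, and 4 genes had none.

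Ltf, the lactoferrin gene, starts on the plus strand at chromosome 9 position 110848339, in the bin chr9:110845001-110850000. Untreated p30 cells had no start-site loop of Ltf and untreated p42 cells had 9, while each LPS list had 3. At equal size the counts were 0, 1, 3 and 3, so the excess of p42 UT over p42 LPS in the deposited lists went with the length of the list, and p30 UT stayed at 0. Counted over every annotated transcript start Ltf had 1, 6, 24 and 9, so the 0 in p30 UT holds for the canonical start, and at a q-value under 1e-05 it had 0 in all 4 lists. All partners but 1 lay downstream, from 15 kb, inside Ltf itself, to 55 kb, past Ccrl2, a gene for a chemerin-binding receptor of the chemokine receptor family. The exception was a bin between genes 20 kb upstream, listed in p42 UT with Rtp3 as the nearest other start.

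Of the Ltf partners, the bin 25 kb downstream, which holds the last part of Ltf, was listed in 3 lists. Its contacts numbered 16 (p30 LPS), 20 (p42 UT) and 18 (p42 LPS), or 4.24, 3.82 and 4.04 times the caller's expected count. The 95% Poisson intervals, which cover counting error alone, ran from 2.42 to 6.88, from 2.33 to 5.90 and from 2.40 to 6.39 and overlapped widely. The bin with the Ccrl2 start site (chr9:110885001-110890000, 40 kb downstream) was a partner in p30 LPS and p42 UT, with 12 and 18 contacts at 3.84 and 4.20 times expected. The loop to 45 kb downstream was listed in both p42 lists and in neither p30 list, with 18 contacts untreated and 13 after LPS.

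Coverage, the reads of a bin, showed where the signal of the Ltf window sat. The Ltf start-site bin had 1445 (p30 LPS), 2053 (p42 UT) and 1446 reads (p42 LPS), which is 0.645, 0.705 and 0.746 times the mean peak bin of those lists. The Ccrl2 bin was the highest of the window in all 4 lists: 4611, 6249, 9224 and 6368 reads, or 1.92, 2.79, 3.17 and 3.28 times the mean peak bin. Ltf's own bin was thus below an average peak bin wherever listed, and its neighbor well above. Relative coverage of the Ccrl2 bin was 1.65-fold higher in p42 UT than in p30 UT, and that of the next bin was 1.68-fold higher, while 8.21% of peak bins moved past 1.5-fold either way in that comparison. The other 3 comparisons of these bins did not pass 1.5-fold. Over all member windows, 2 of 48 bins (4.17%) passed it in p42 UT over p30 UT, both of them these. Some of the 48 are not peak bins, so this share and the 8.21% are over unlike sets. The shares in p42 LPS over p30 LPS, p30 LPS over p30 UT and p42 LPS over p42 UT were 1 of 43, 0 of 44 and 2 of 46 bins, which makes 5 of 181 ratios in all.

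Loops that pass over Ltf were also listed. A loop from the intergenic bin 20 kb upstream (chr9:110825001-110830000) to the bin 45 kb downstream (chr9:110890001-110895000) was in all 4 lists, with 13 (p30 UT), 15 (p30 LPS), 35 (p42 UT) and 17 contacts (p42 LPS). Those are 5.71, 6.86, 12.4 and 7.0 times expected. The count in p42 UT stood above the other 3, which were close to one another. By the two-sided exact binomial test over all loops of both lists, with Benjamini-Hochberg adjustment, p42 UT against p30 UT gave an adjusted p of 0.0619, the lowest of any member loop in that comparison and short of 0.05. It was 0.0364 when only loops of all 4 lists were tested and 0.413 with the caller's own expected counts as the null, so the call depends on the setting. The binomial test takes reads as independent and holds no variation between replicates, so here and below it compares the reads of 2 pooled lists, not the conditions.

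**Figure D2:**
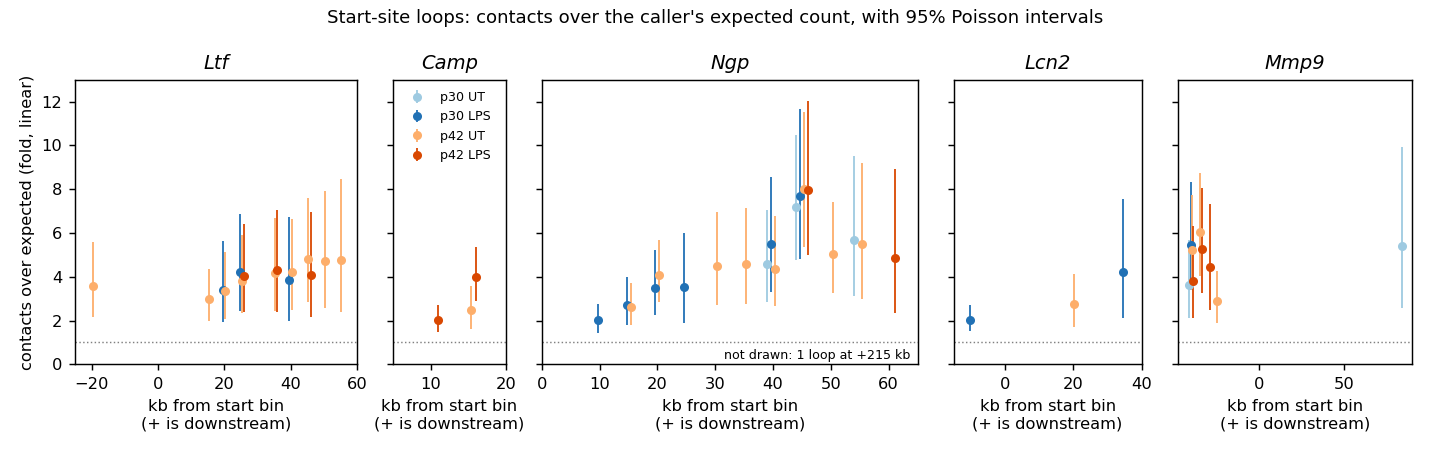
Contacts over the caller's expected count (y axis, linear, fold) for every start-site loop of the 5 genes that had one, by distance from the start-site bin in kb (x axis), with 1 color per pooled list and bars for 95% Poisson intervals. At Ngp the loop 45 kb downstream stands at 7.20 to 8.03 in all 4 lists, above the other loops drawn in that panel. The loop 215 kb downstream, at 7.60 in p30 LPS, is not drawn.

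Ngp, which encodes a neutrophil granule protein of the cystatin superfamily, was one of the 2 members with start-site loops in every list, namely 3, 7, 8 and 2. At equal size it had 3, 5, 7 and 2, so the low count in p42 LPS stayed. It starts at chromosome 9 position 110248815 on the plus strand, in the bin chr9:110245001-110250000. Every partner lay downstream, 10 to 60 kb away within or at the start of Klhl18, which encodes a kelch-like adaptor of a ubiquitin ligase, except 1 bin 215 kb away in Nbeal2 listed in p30 LPS.

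The loop from Ngp to the bin 45 kb downstream (chr9:110290001-110295000), in Klhl18 and wholly outside its canonical exons, was in all 4 lists at a similar level. Its contacts were 27 and 29 in the untreated p30 and p42 lists and 22 in each LPS list, or 7.20, 7.69, 8.03 and 7.95 times expected. In p30 LPS the interval ran from 4.82 to 11.6, and it overlapped those of the other lists. None of the 4 comparisons passed the binomial test for it, each with an adjusted p of 1, and the log2 ratios per modelled contact lay between -0.14 and 0.02. The bin 45 kb downstream was also looped in all 4 lists to the bins 5 and 10 kb upstream of Ngp. With the nearer bin it had 22, 37, 41 and 28 contacts, at 4.20, 8.36, 7.09 and 7.04 times expected. With the farther bin, which holds the start of Ptpn23, it had 23, 28, 28 and 13 contacts. Contacts of the bin 45 kb downstream were thus not particular to the Ngp start-site bin. This partner bin holds 4 C/EBP cores and 4 AP-1 sites, where a listed peak bin held 2.08 and 1.53 on average. The 31 partner bins of all members held a mean of 1.58 and 1.55, and the adjacent Ngp partner bin, 40 kb downstream, held 0 and 1. The adjacent bin 40 kb downstream was a partner in 3 lists at 4.60 (p30 UT), 5.48 (p30 LPS) and 4.37 times expected (p42 UT) and was not listed with Ngp in p42 LPS.

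Coverage of the Ngp start-site bin was close to that of a mean peak bin throughout, at 2465, 2090, 2670 and 1741 reads, or 1.02, 0.933, 0.917 and 0.898 times that mean. No Ngp ratio between lists passed 1.5-fold. The bin with the Ptpn23 start, 10 kb upstream, stood at 2.02, 2.87, 2.06 and 1.97 times the mean. It had the most loops of the window, 10, 14, 15 and 6, and the highest coverage in both LPS lists. The bin 40 kb downstream had 7301, 6070, 8492 and 3693 reads, or 3.03, 2.71, 2.92 and 1.90 times the mean. Relative to the mean it was lower in p42 LPS than in p42 UT, with a ratio of 0.653, where 2.73% of peak bins passed 1.5-fold. The loop between that bin and the one 10 kb nearer to Ngp was the only member loop that passed the contact test in any of the 4 comparisons. LPS-treated p42 cells had 45 contacts there and untreated ones 109 (p30 had 62 and 83), a log2 ratio per modelled contact of -1.01 with an adjusted p of 0.0083 in the binomial test. With the caller's expected counts as the null, which allow for the coverage of both bins, the adjusted p was 0.793.

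Camp, the only mouse cathelicidin gene, starts at chromosome 9 position 109678685 on the minus strand, 570 kb from Ngp and 1170 kb from Ltf. No start-site loop of Camp was in a p30 list, and p42 had 1 untreated and 2 after LPS. At equal size the counts were 0, 0, 0 and 2. Its partner in both p42 lists was the bin 15 kb downstream with the start of Nme6, a nucleoside diphosphate kinase gene (chr9:109660001-109665000), with 27 contacts untreated and 43 after LPS. Those were 2.47 (1.63 to 3.59) and 3.98 times expected (2.88 to 5.37), and the log2 ratio per modelled contact was 0.93 with an adjusted p of 0.201 in the binomial test, short of 0.05.

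The start-site bin of Camp, which was listed only where it had a loop, had 2715 reads in untreated p42 cells and 2865 after LPS. Relative to the mean peak bin that was 0.933 and 1.48, a 1.58-fold higher value after LPS, the only one of 11 member ratios past 1.5-fold. In that comparison 2.73% of peak bins passed the fold. Per modelled contact the ratio was 1.27, short of 1.5-fold. The Nme6 bin showed no such rise, with 2776 and 1914 reads, or 0.954 and 0.987 times the mean. No listed loop joined the start-site bins of Camp, Ngp and Ltf to one another in any list.

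Lcn2, the lipocalin 2 gene, starts at chromosome 2 position 32277809 on the minus strand and had 3 start-site loops, 2 in p30 LPS and 1 in p42 UT. All 3 had different partners. In p30 LPS these were the bin 10 kb upstream with the start of Ptges2, a prostaglandin E synthase gene (51 contacts, 2.04 times expected), and the bin 35 kb downstream with the start of Dnm1, which encodes dynamin 1 (11 contacts, 4.22 times). In p42 UT it was a bin 20 kb downstream inside Ciz1 (22 contacts, 2.73 times). At equal size 1 loop was left, in p30 LPS. The start-site bin had 2272 reads in p30 LPS and 3053 in p42 UT, 1.01 and 1.05 times the mean peak bin, so the lack of listed loops in the other 2 lists says nothing of its coverage there. Within 50 kb there were 25, 34, 38 and 21 loops, and 11 different loops were in all 4 lists.

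Mmp9, the gelatinase B gene, starts at chromosome 2 position 164790139 on the plus strand, near the left edge of its bin, and had 2, 1, 3 and 3 start-site loops. At equal size these were 2, 1, 2 and 3, and counted over every annotated transcript start 6, 3, 11 and 8. Its partner in all 4 lists was the bin 40 kb upstream with the start of Zfp335, a zinc finger gene (chr2:164750001-164755000), at 18, 21, 25 and 15 contacts and 3.60, 5.45, 5.23 and 3.82 times expected. The intervals overlapped, the lowest running from 2.13 to 5.69 and the highest from 3.37 to 8.33. None of the 4 comparisons of this loop passed the binomial test, where the lowest adjusted p was 0.866. The bin 35 kb upstream, between genes, was a partner in both p42 lists at 6.05 and 5.28 times expected and in neither p30 list. A loop 85 kb downstream to the start of Ncoa5, a nuclear receptor coactivator gene, was listed in p30 UT alone with 10 contacts.

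The Mmp9 start-site bin had lower coverage than a mean peak bin in every list: 1921, 1341, 1956 and 1371 reads, or 0.798, 0.599, 0.672 and 0.707 times that mean. Its lowest relative value was in p30 LPS, 0.750 times that of p30 UT, which did not reach 1.5-fold. The Zfp335 bin was among the tallest near any member, with 11974, 13088, 12817 and 7376 reads or 4.98, 5.84, 4.40 and 3.80 times the mean. It was lower in p42 LPS than in p30 LPS, at a ratio of 0.651, where 6.75% of peak bins passed 1.5-fold. In p30 LPS over p30 UT, where 3.14% of peak bins passed, no listed bin of any member window did.

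**Figure D3:**
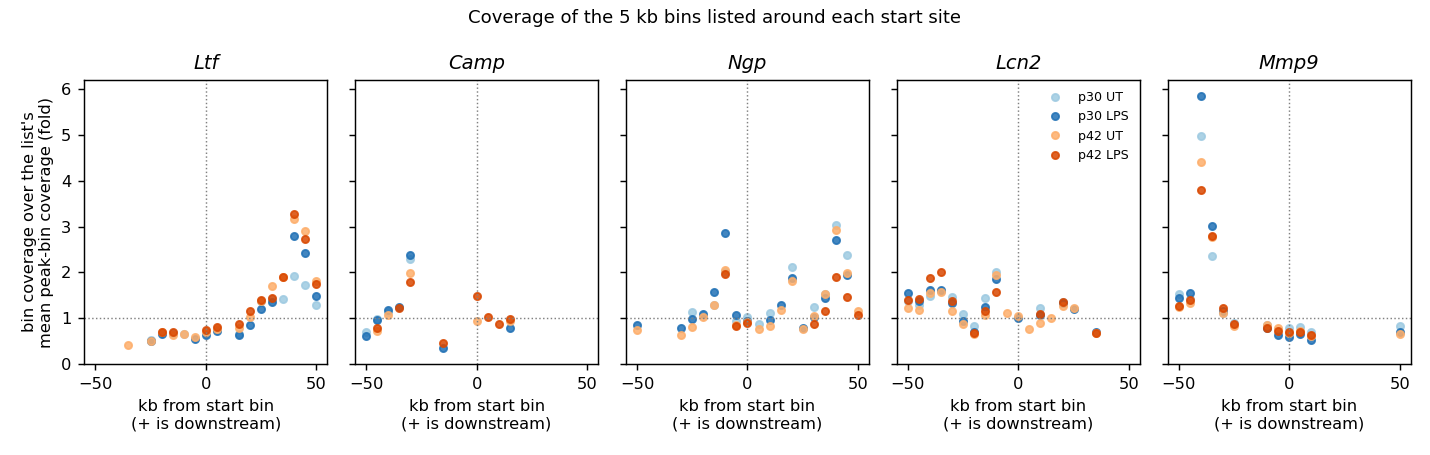
Coverage of each listed 5 kb bin over the list's mean peak-bin coverage (y axis, fold) against the distance from the start-site bin in kb (x axis, positive downstream) for the 5 genes with start-site loops, with 1 color per pooled list. The tallest point of a panel lies 40 kb downstream for Ltf (3.28) and Ngp (3.03) and 40 kb upstream for Mmp9 (5.84), while Ltf and Mmp9 themselves stay under 1.

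S100a8 and S100a9, the calprotectin genes, lie 26.8 kb apart on chromosome 3 and their windows overlap. Neither canonical start-site bin was listed in any list. Only 3 loops had an end within 50 kb of either gene, and each was in 1 list. In p30 UT, 2 loops ran from chr3:90490001-90495000, 85 kb upstream of S100a8, to bins 50 and 20 kb upstream of it, with 20 and 12 contacts at 4.59 and 5.00 times expected. In p42 LPS, 1 loop of 45 kb joined bins 10 kb upstream of the canonical starts of S100a8 and S100a9, with 11 contacts at 4.58 times expected. Its S100a8 end, chr3:90565001-90570000, holds another annotated start of S100a8, a gene annotated from position 90567118, so S100a8 had 1 start-site loop in p42 LPS when every annotated transcript start was counted. The bins of those loops inside the windows had 749 to 1249 reads, at most 0.547 times the mean peak bin.

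Cd177, which encodes a neutrophil surface glycoprotein found on specific granules, and Mmp8, the neutrophil collagenase gene, had no listed loop within 50 kb in any list. Of all protein-coding genes, 67.9% had one in at least 1 list. The nearest listed bin to Cd177 (chromosome 7 position 24459747, minus strand) was 55 kb away in p42 UT and 60 kb away in the other 3 lists. For Mmp8 (chromosome 9 position 7558457, plus strand) it was 150 kb away in p42 UT and 155 kb away in the others, with 489 to 797 reads. As the lists name only pairs past the caller's threshold, contacts and coverage at the start sites of these 4 genes are unknown here, and their loops are not listed rather than shown to be missing.

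Within 50 kb of any member there were 111 (p30 UT), 144 (p30 LPS), 211 (p42 UT) and 98 loops (p42 LPS), or 0.138%, 0.152%, 0.133% and 0.125% of each list. At equal size the counts were 108, 112, 107 and 98, so most of the difference between the lists went with their lengths. Ltf, Ngp and Camp departed from this. Loops near Ltf numbered 12, 17, 50 and 22 as deposited and 11, 11, 25 and 22 at equal size, with more in both p42 lists than in both p30 lists. Loops near Ngp numbered 40, 51, 69 and 21 as deposited and 39, 38, 35 and 21 at equal size, lowest in p42 LPS. Mmp9 had 27, 33, 48 and 25 as deposited but 27, 28, 23 and 25 at equal size. Camp had 5, 9, 6 and 8 loops as deposited and 4, 8, 2 and 8 at equal size, lowest in p42 UT, and none of them was in all 4 lists. Of the 304 different loops, 50.0% were in 1 list and 9.87% in all 4.

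**Figure D4:**
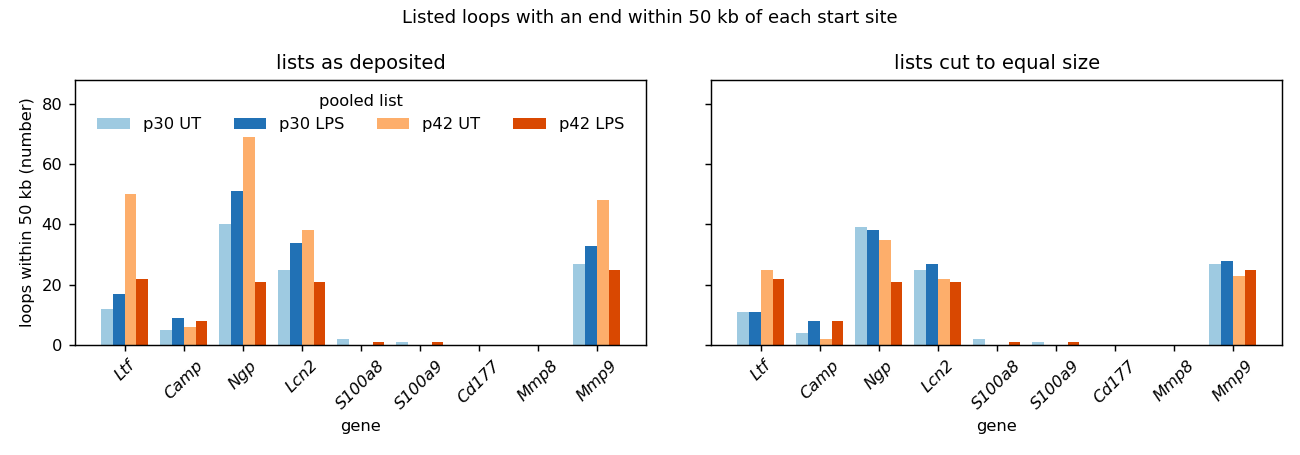
Number of listed loops with an end within 50 kb of each start site (y axis) for the 9 genes (x axis) in the 4 pooled lists, as deposited on the left and for lists of 78591 loops each on the right. The tall p42 UT bars of Ngp (69) and Mmp9 (48) on the left fall to 35 and 23 on the right, and Ltf keeps higher p42 bars (25 and 22) than p30 bars (11 and 11).

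The contact test showed 1 call among the members' loops. It could be run for loops in both lists of a comparison, 68 for p42 UT against p30 UT, 52 for p42 LPS against p30 LPS, 61 for p30 LPS against p30 UT and 76 for p42 LPS against p42 UT. Among these, 0, 0, 0 and 1 had an adjusted p under 0.05, where 5.09%, 1.59%, 2.2% and 1.47% of all loops did. The median log2 ratio per modelled contact over the member loops was 0.08, -0.27, 0.21 and -0.13, and over all loops 0.20, -0.13, 0.22 and -0.13. The member median was thus near that of all loops in both comparisons of LPS with UT and below it in both comparisons of p42 with p30. All 8 loops near Ltf that were tested had a ratio above 0 in p42 UT over p30 UT, and none passed the test. Their median was 0.54 where that of all loops was 0.20. None of the 8 ended in the Ltf start-site bin, and several shared a bin, so they are not separate observations. After LPS all 12 loops near Ngp and all 11 near Mmp9 were below 0 in p42 over p30, and again none passed the test. Their medians were -0.52 and -0.37, where the median of all loops was -0.13. Only 1 of the 12 and 1 of the 11 was a start-site loop, and these loops shared bins too.

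**Figure D5:**
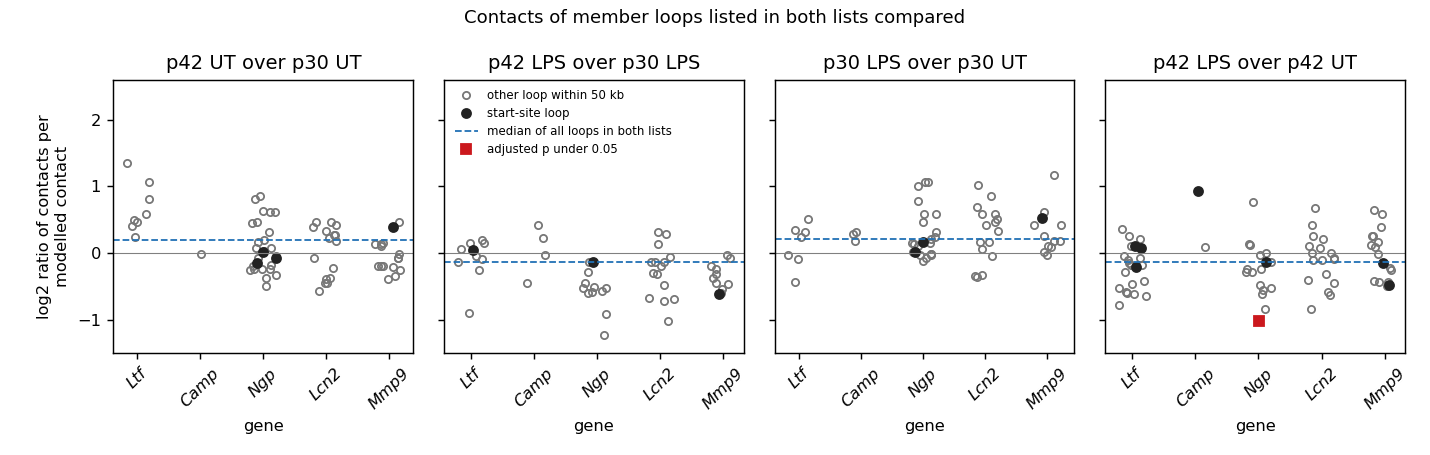
The log2 ratio of contacts per modelled contact (y axis) for each loop within 50 kb of the 5 genes with start-site loops (x axis) that is in both lists compared, in 4 panels. Filled points are start-site loops, the dashed line is the median of all loops in both lists, and the red square, near Ngp at -1.01 in p42 LPS over p42 UT, is the only loop with an adjusted p under 0.05.

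The pattern over the 4 lists was set against that of all 10513 genes with a start-site loop in any list. Camp and Mmp9 had more start-site loops in p42 than in p30 both untreated and after LPS, a pattern of 17.2% of those genes. At equal size Ltf alone of the members showed it, with 13% of the genes. Ltf, Ngp and Lcn2 had more start-site loops after LPS in p30 and fewer in p42, as 40.1% of the genes did. At equal size this held for Ngp alone of the members, and for 15.5% of the genes. So the deposited counts of 3 members followed the direction of the list lengths. By coverage over the 4 lists, the gene outside 1 Mb whose pattern was most like that of Ngp was Ssbp2 (Euclidean distance 0.02 in centered log2 units, 6317 genes compared), and for Mmp9 it was Wdr54 (0.04, 6312 genes).

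A list of 24 other granule and effector genes of neutrophils gives the surroundings of the members. Of these, 12, 10, 16 and 12 had a start-site loop, and 17 had one in some list. Of all protein-coding genes, 37.2%, 38.7%, 44.8% and 35.1% had one, and 48.3% had one in some list. The 3 with the most were Prtn3 (17, 18, 27 and 15), Elane (9, 13, 16 and 13) and Cyba (6, 14, 21 and 8). Prtn3 and Elane are adjacent serine protease genes of primary granules and may share partner bins, and Cyba encodes a subunit of the NADPH oxidase. Those without any included Ctsg, Chil3, Olfm4, Cybb, Mmp25 and Fpr1. Among them, Ctsg belongs to the primary granule and Olfm4 to the specific granule, so unlisted start sites occurred on both sides of the divide. In sum the 24 genes had 63, 80, 149 and 84 start-site loops, highest in the longest list as for the members.

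All 6 regulators counted, Cebpa, Cebpb, Cebpd, Cebpe, Gfi1 and Spi1, had start-site loops in some list, where 48.3% of all protein-coding genes did. Cebpe, which encodes the C/EBP factor of late granulopoiesis, had 5, 3, 28 and 15, and its start-site bin stood at 1.89, 1.35, 4.32 and 3.23 times the mean peak bin. Gfi1, a repressor needed for neutrophil differentiation, had 1, 0, 6 and 2, and Spi1, which encodes PU.1, had 6, 7, 11 and 10, with its start-site bin at 3.5, 3.70, 4.60 and 4.35 times the mean peak bin. For Cebpe and Spi1 both p42 values were above both p30 values by loops and by coverage, though the loop counts are from lists of unequal length. Cebpa had 10, 5, 11 and 5, Cebpb 13, 21, 33 and 21, and Cebpd 5, 7, 20 and 7. Start-site loops of the marker genes summed to 54, 67, 128 and 72 for progenitors, 7, 6, 18 and 8 for macrophages, 3, 5, 13 and 6 for erythroid cells, 5, 2, 6 and 2 for lymphoid cells and 0, 0, 3 and 0 for mast cells. Each of these 5 lists was highest in p42 UT, the longest loop list, as the members' loops were, and their part in the members' counts was not tested.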

How the data were processed

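H3K27ac HiChIP had been made from 8 libraries, 2 per group. Per the methods the authors aligned reads to mm39 with BWA-MEM (BWA 0.7.17 in the submitters' processing notes) and called loops with FitHiChIP. The names of the deposited files give 5 kb bins and a q-value threshold of 0.01. The authors deposited 1 list per group with no header, holding the contact count of each bin pair, the coverage of both bins, peak flags, the caller's bias, expected count, probability (a fraction), p-value and q-value. How the replicates were pooled is not given in the sources used here, and their depth per library is not known.

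From these, loops were matched to canonical start sites of GENCODE M39 (GRCm39), and a window of 50 kb was used around each. The number of modelled contacts was the expected count over the deposited probability. Coverage was divided by the mean of peak bins, which the caller's bias gives, and called at 1.5-fold. For a loop in both lists, a binomial test (exact, two-sided) set its contacts against the share of modelled contacts, with Benjamini-Hochberg adjustment over all loops in both lists. Poisson intervals (exact, 95%) cover counting error only. Per the methods, duplicate read pairs had been taken out with pairtools. Variation between the pooled libraries is not in the intervals.

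The genes named are the 9 members, genes at or nearest to their partner bins, regulators, the 3 of the granule list with the most start-site loops, and the gene over 1 Mb away with the most similar coverage. Granule genes without a start-site loop and cell type markers are named outside this rule, after their counts were seen. The members and lists were chosen with earlier results of these data known. Alternatives were the q threshold, list size, bins and start sites counted, window, scaling and null of the test. Python 3.11.15, pandas 2.3.3, NumPy 2.4.6, SciPy 1.17.1 and matplotlib 3.10.9 were used.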

Additional observations from a re-analysis of the deposited data

Results flagged for a closer look

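Counts that rose with LPS in one isoform's lists and fell in the other's were marked, from 1 pooled list per group, and the differences were not tested. Each value is the change in p30 less the change in p42. At the start site it was 9 loops for Ltf (3 and -6), 10 for Ngp (4 and -6) and 3 for Lcn2 (2 and -1). At equal size the changes were 1 and 0 for Ltf, 2 and -5 for Ngp, and 1 and 0 for Lcn2, so opposite directions were kept by Ngp.

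Within 50 kb it was 33 for Ltf (5 and -28), 59 for Ngp (11 and -48), 26 for Lcn2 (9 and -17) and 29 for Mmp9 (6 and -23). At equal size these were 0 and -3, -1 and -14, 2 and -1, and 1 and 2, so Lcn2 alone of these 4 kept opposite directions. The list lengths moved the same way, up with LPS in p30 and down in p42. For S100a8 the value was -3 (-2 and 1) and for S100a9 -2 (-1 and 1), the same at equal size, on 3 loops in all.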

How the results depend on the processing

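No paired analysis was possible because each list pools both replicates of its group, and for the same reason no replicate could be left out. Values follow the order p30 UT, p30 LPS, p42 UT, p42 LPS, and only those that moved are given. Start-site loops of the members numbered 8 (p30 LPS) and 6 (p42 LPS) at a q-value under 0.001, 2, 3, 5 and 3 at 1e-05, 8 (p30 LPS) and 12 (p42 UT) at equal size, 15, 24, 55 and 23 with 1 bin added on each side, and 10 (p30 UT), 45 (p42 UT) and 22 (p42 LPS) over every transcript start. Members with a start-site loop numbered 3 in p42 UT at 0.001 and at equal size, and 1, 2 and 2 in the first 3 lists at 1e-05. Loops near members numbered 58, 75, 130 and 55 within 25 kb, 200, 250, 393 and 159 within 100 kb, 67, 94 and 58 at 0.001 (p30 UT, p30 LPS, p42 LPS), and 107 in p42 UT at equal size. Scaled to modelled contacts, 0 of 11 coverage ratios passed 1.5-fold, the Camp log2 ratio was 0.34, and the median of all peak bins moved to 0.16 (p42 UT over p30 UT), -0.33 (p42 LPS over p30 LPS), 0.18 (p30 LPS over p30 UT) and -0.32 (p42 LPS over p42 UT). The signs of 6 smaller ratios of Ltf, Ngp and Mmp9 turned with that shift. With the caller's expected counts as null, 240, 19, 25 and 39 of all loops were called in the 4 comparisons in the order of the contact test, and 0 member loops in p42 LPS against p42 UT (adjusted p 0.793 for the Ngp loop). With loops in all 4 lists, 1 member loop was called in p42 UT against p30 UT (the Ltf loop, 0.0364). The cause was not tested. Beyond these, no called direction turned. Of the counts compared, 47 stayed within 1.5 times and 39 moved. Contact counts of 10 to 51 at start sites limit the precision.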
